A study of Homo sapiens with 12 samples.

Results

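The hypoxia response genes described here are 10 genes taken by their exact names from the FPKM tables of both cell lines: HIF1A, EPAS1, EGLN1, EGLN3, VEGFA, ADM, SLC2A1, CA9, BNIP3 and NDRG1. They are 10 of 23621 gene rows, and 9 of them, all but CA9, are among the 14251 actively expressed genes, those above 1 FPKM (a read count scaled to transcript length and library size) in at least 1 library. The libraries come from KURAMOCHI (Ku) and COV362 (Cov), 2 established human ovarian cancer cell lines, both labelled as untransduced controls. Ku cells were grown in RPMI and Cov cells in DMEM, each with fetal bovine serum. Each line was treated for 6 hr with DMSO, the vehicle, or with THZ1, a covalent inhibitor of the transcriptional kinases CDK7, CDK12 and CDK13, at 50 nM or 250 nM, in biological duplicate, which gave 12 libraries. The labels name no arm at low oxygen.

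When oxygen is plentiful, prolyl hydroxylases of the EGLN family mark the HIF alpha subunits, HIF-1α (gene HIF1A) and HIF-2α (gene EPAS1), for capture by the VHL ubiquitin ligase and destruction. When oxygen falls, the subunits persist, pair with ARNT and switch on genes for angiogenic factors, glucose uptake, pH control and mitochondrial turnover. EGLN1 and EGLN3 are themselves targets, which gives the pathway its feedback. HIF-1α and HIF-2α are controlled mainly as proteins, and only RNA was measured here.

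At 250 nM THZ1, 8 of the 9 active hypoxia response genes fell in Ku cells and all 9 fell in Cov cells, and none rose, on the spike-in scale of the deposited values. When libraries were instead set to equal medians, 1 was called lower and 3 higher in Ku cells and 0 and 2 in Cov cells, and with median-of-ratios scaling 3 and 3 and then 3 and 0. The deepest falls were those of EGLN1 and EGLN3 in both lines and of ADM in Ku cells, and the smallest change was that of EPAS1 in both. At 50 nM none of the 9 passed the test in Ku cells, where NDRG1 and EGLN3 lay above DMSO in both libraries, and 6 fell in Cov cells. At an unadjusted p under 0.05 in limma, that dose left 2 of the 9 Ku values below DMSO and 1 above it. A gene was called lower or higher at an adjusted p under 0.001 in limma and a log2 change of (FPKM + 1) beyond 0.5, and "fell" is used only of such calls. These counts stand in a background of falling RNA. In Ku cells 68.6% of the active genes were called lower at 250 nM and 0.0491% higher, and in Cov cells 84% and 0.105%. At 50 nM the shares called lower were 11.3% in Ku and 70.5% in Cov cells, and the shares called higher were 0.0842% and 0.0772%. The Ku share at 50 nM rested on every library: the 1607 genes called lower became 55 without Ku DMSO replicate 1, 131 without Ku DMSO replicate 2, 12 and 7 without Ku 50 nM replicate 1 and 2, and 6 without either Ku 250 nM library. It was also 3 with no minimum FPKM, 9 with only the 2 groups compared, 989 with a replicate block, 105 with equal medians and 387 with median-of-ratios. The 9774 called lower in Ku cells at 250 nM became 6085 and 6319 without Ku 250 nM replicate 1 and 2, and the 10042 in Cov cells at 50 nM became 4314 without Cov DMSO replicate 2.

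The scale matters for every direction given below. The deposited FPKM were normalized to ERCC spike-in RNAs mixed into RNA from counted cells, so they are meant to follow RNA per cell. On that scale the median active gene changed in Ku cells by -0.40 with 50 nM and -1.11 with 250 nM, and in Cov cells by -0.85 and -1.31, all as log2 change of (FPKM + 1). Setting every library to the same median FPKM moved the 250 nM medians to 0.29 in Ku and 0.31 in Cov cells, and a median-of-ratios scaling moved them to -0.000879 and 0.0109. The calls at 250 nM were 9774 lower and 7 higher in Ku cells on the deposited scale, 1654 and 3831 with equal medians, and 2709 and 1579 with median-of-ratios. In Cov cells they were 11971 and 15, 1611 and 3764, and 2694 and 1222. A value below therefore stands for RNA per cell only as far as that normalization holds, which was not tested. The 2 other scalings bring the libraries to a common level. A value there is read against the median of all active genes on the same scale. With equal medians that median lay above 0 at 250 nM. HIF1A in Cov cells, at 0.30 there, was thus above DMSO but not above the median gene, at 0.31. Tables of the lines were normalized separately, so the lines are set side by side and differences between them were not tested. In bulk RNA, a loss in some cells and a smaller loss in all cells cannot be told apart.

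The 7 listed markers of the epithelial and serous ovarian lineage stood at unequal levels. PAX8, a Müllerian lineage factor, stood at 136 ± 5.50 FPKM (SD, n = 2) in Ku DMSO libraries and 124 ± 5.33 in Cov DMSO libraries, and the keratin KRT8 at 2432 and 1133. WT1 was at 56.8 FPKM in Ku and 0.653 in Cov cells, and MUC16, a mucin shed by ovarian tumours, at 0.166 and 5.71. In Ku DMSO libraries KRT18 stood at 2135 FPKM, while EPCAM at 4.13 and KRT7 at 4.61 lay below CDH5 and COL3A1, given next. At 250 nM the lineage markers in Ku cells were left at between 4.31% (WT1) and 79.7% (KRT7) of their DMSO mean, with PAX8 at 9.29%. Of 6 markers of other cell types, PECAM1, PTPRC and EPO reached at most 0.378 FPKM in any library, CDH5 lay at 8.23 and 7.75 FPKM in the DMSO libraries of Ku and Cov cells, COL1A1 at 2.53 and 3.17 and COL3A1 at 8.58 and 0.663. The summed level of the 6 ran from 18.4 to 21.2 FPKM with DMSO, 14.8 in both 50 nM libraries and up to 11.1 in the 250 nM libraries of the Ku line. Across the Cov libraries the sum ran from 11.8 to 12.6, from 5.95 to 6.48 and from 4.82 to 4.98. Of the 3 active ones, CDH5, COL1A1 and COL3A1, 1 was called lower at 250 nM in Ku cells and 2 at each dose in Cov cells, and their part in the changes below was not tested. Total FPKM ran from 607016 to 1686570 per library. Depth is unknown because the tables hold no counts, and p-values rest on duplicates: an exact two-sided permutation test of 2 libraries against 2 cannot go below 0.33.

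The promoters of the members are shown because the HIF heterodimer reads a short core, ACGTG or GCGTG, and the members differ in whether they carry it next to their start. Of the 10 genes, 8 had an entry among the RefSeq promoters of GRCh38.p14 used here. VEGFA and NDRG1 had none. The 250 bases before each start were searched on both strands for ACGTG and GCGTG (reverse complements CACGT and CACGC). At least 1 core was carried by 6 members, namely CA9, BNIP3 and EGLN1 with ACGTG, and HIF1A, EPAS1 and ADM with GCGTG, while EGLN3 and SLC2A1 had neither in this window. Of all 35116 promoters in the table, 18.5% held ACGTG, 32.2% held GCGTG and 43.2% held either, so a core this short is common. In BNIP3 the ACGTG lies in the palindrome CACGTG, which 6.34% of promoters held and which other factors, MYC and MAX among them, also read. BNIP3 also held 4 GCGTG cores, and HIF1A had a second entry with neither core. The lines give 30 bases around the ACGTG core, or around the GCGTG core in genes without ACGTG, with the core in capitals. In CA9 it is read on the other strand.
HIF1A (chr14:61695297-61695326, plus strand): tggctgagagcgGCGTGggctggggtgggg
EPAS1 (chr2:46297278-46297307, plus strand): gggcctgccggcGCGTGcccgcccacacac
ADM (chr11:10304960-10304989, plus strand): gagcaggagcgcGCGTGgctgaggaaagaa
CA9 (chr9:35673898-35673927, plus strand): tcgtttccaatgCACGTacagcccgtacac
BNIP3 (chr10:131982039-131982068, minus strand): cgcacgcgccgcACGTGccacacgcacccc
EGLN1 (chr1:231422288-231422317, minus strand): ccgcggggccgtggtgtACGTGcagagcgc
The core began 13 bases before the start in EGLN1, 18 in CA9, 101 in ADM, 117 in EPAS1, 133 in BNIP3 and 204 in HIF1A. A match is a description of these letters and not a measured site. EGLN1, which has a core in the window, and EGLN3 and SLC2A1, which have none, all fell at 250 nM in both lines.

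**Figure D1:**
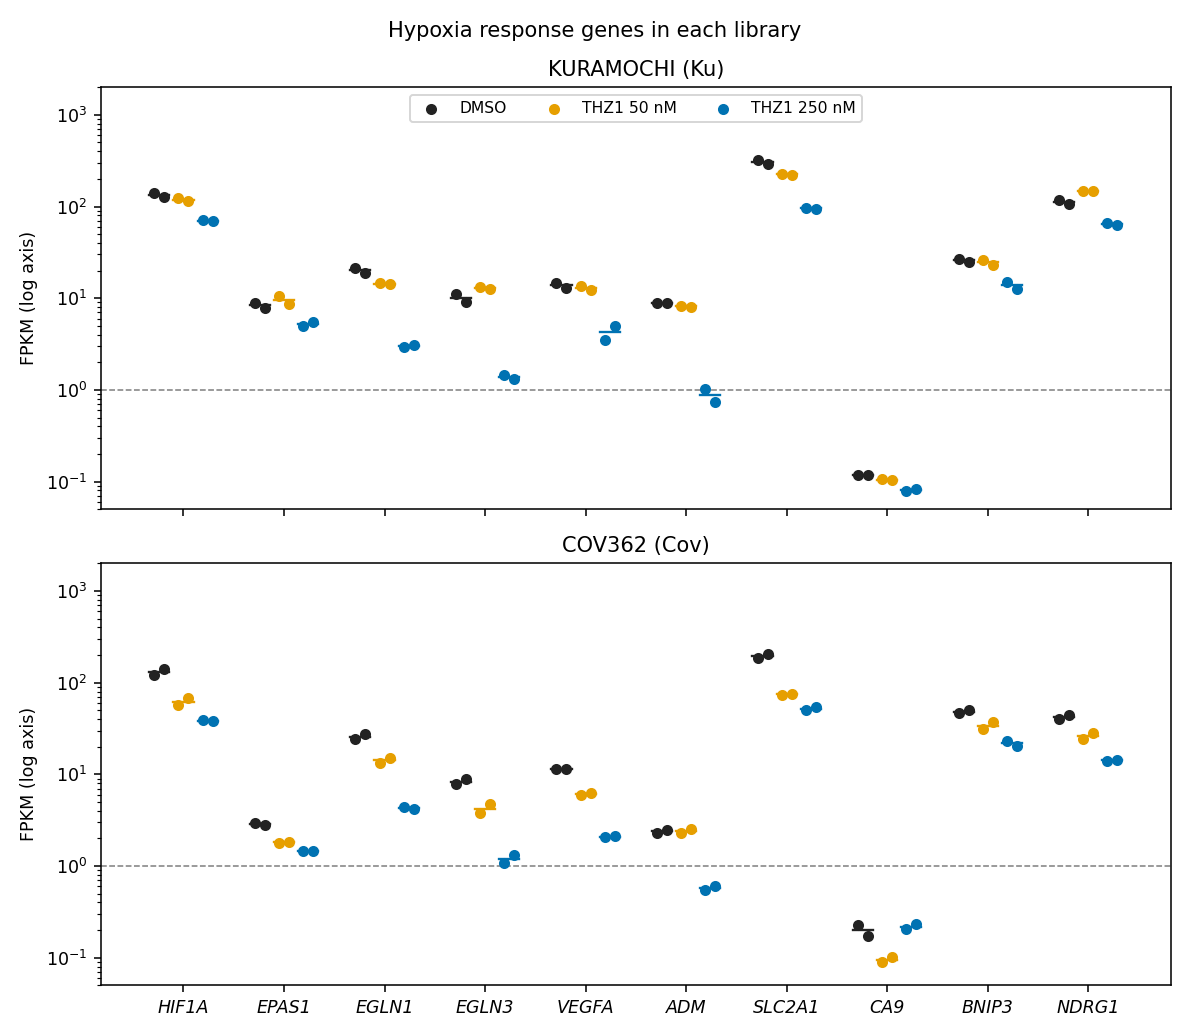
FPKM of the 10 hypoxia response genes in each library on a log axis, Ku cells above and Cov cells below, with 1 point per library and a short bar at the mean of each group of 2. The dashed line marks 1 FPKM. SLC2A1 and HIF1A were the most abundant members together with NDRG1 in Ku cells, and CA9 lay below 1 FPKM throughout.

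HIF1A, which encodes the oxygen-regulated subunit of HIF-1, lies at chr14:62162231-62214977 on the plus strand of GRCh37, the build of the files. In Ku cells it stood at 141 and 126 FPKM with DMSO, 124 and 115 at 50 nM, and 71.6 and 68.7 at 250 nM. In Cov cells the values were 123 and 140 with DMSO, 56.8 and 67.5 at 50 nM, and 39.1 and 37.9 at 250 nM. The 3 groups did not overlap in either line. At 250 nM HIF1A was left at 52.5% of its DMSO mean in Ku and 29.3% in Cov cells. It fell by 0.92 on the log2 scale in Ku cells (SE 0.077, adjusted p = 6.84e-05), but was called higher than DMSO, by 1.04 with equal medians and by 0.53 with median-of-ratios. In Cov cells it fell by 1.74 (SE 0.11, adjusted p = 4.34e-06), with 0.30 under equal medians and -0.15 under median-of-ratios. At 50 nM the change was -0.16 in Ku cells, with a 95% interval of -0.35 to 0.029, and did not pass. In Cov cells it fell by 1.07 at 50 nM (SE 0.11, adjusted p = 9.75e-05), a call that was lost without Cov DMSO replicate 2 (-0.97, adjusted p = 0.001) and that became 0.14 with equal medians and -0.052 with median-of-ratios.

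EPAS1 encodes HIF-2α and lies at chr2:46520806-46613836 on the plus strand. It was the less abundant of the pair, at 8.95 and 7.73 FPKM in Ku DMSO libraries, 10.5 and 8.70 at 50 nM, and 5.04 and 5.46 at 250 nM. Cov cells held less, with 2.92 and 2.78 FPKM in DMSO, 1.79 and 1.85 at 50 nM, and 1.47 and 1.48 at 250 nM. The DMSO and 50 nM libraries overlapped in Ku cells, and the groups did not overlap in Cov cells. Its change at 250 nM was the smallest of the 9 members in both lines. In Ku cells it was -0.58 (SE 0.14, adjusted p = 0.00784), which misses the threshold, and it reached 1.15 with equal medians and 0.69 with median-of-ratios, both called higher. The Cov fall was 0.64 (SE 0.083, adjusted p = 0.000179), against 0.74, called higher, with equal medians and 0.44, not called, with median-of-ratios. The Cov call was lost without either Cov DMSO library or either 250 nM library, with changes from -0.66 to -0.61 and adjusted p from 0.00147 to 0.00196.

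The ratio of EPAS1 to HIF1A within a library is unchanged by any single multiplier for that library. A normalization that depends on the level of a gene can move it, and in the deposited tables up to 1958 rows of a library lay below its shared low value. Its part in the ratio of this pair of unequal abundance was not tested. Its Cov values were 0.0238 and 0.0198 with DMSO, 0.0315 and 0.0274 at 50 nM, and 0.0377 and 0.0389 at 250 nM, each dose above the one before. In Ku cells it was 0.0634 and 0.0612 with DMSO, 0.0846 and 0.0759 at 50 nM, and 0.0704 and 0.0795 at 250 nM, so both doses lay above DMSO and overlapped each other. In the deposited values the ratio was thus higher with THZ1 than with DMSO in both lines, although duplicates cannot bring an exact permutation test below 0.33. Over the differences of the 8 treated libraries from the DMSO mean of their line, the active genes nearest to HIF1A by Euclidean distance were TNFRSF10B (0.139), CCT2 (0.178) and ATF6 (0.189). Near to EPAS1 lay LOC728323 (0.197) and GAB1 (0.219). TNFRSF10B, for example, changed by -1.0 at 250 nM in Ku and -1.74 in Cov cells.

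At 250 nM the prolyl hydroxylases EGLN1 and EGLN3 fell further than the median gene in both lines. EGLN1 encodes PHD2, the main oxygen sensor for HIF-1α, and lies at chr1:231499497-231558033 on the minus strand. It went from 21.4 and 18.8 FPKM in Ku DMSO libraries to 14.5 and 14.2 at 50 nM and 2.92 and 3.13 at 250 nM. The Cov libraries went from 24.4 and 27.2 FPKM to 13.3 and 15.1, and then to 4.39 and 4.23. The groups did not overlap in either line, and 15.0% and 16.7% of the DMSO mean were left at 250 nM in Ku and Cov cells. The fall at 250 nM was 2.39 in Ku cells (SE 0.11, adjusted p = 1.13e-05) and 2.34 in Cov cells (SE 0.10, adjusted p = 1.17e-06). It stayed below DMSO under both other scalings, at -0.67 and -1.13 in Ku cells and at -0.46, not called, and -0.88 in Cov cells. Only 9.83% of active genes in Ku and 11.9% in Cov cells had a lower log2 change. At 50 nM the Ku change of -0.46 did not pass (adjusted p = 0.0146). The Cov fall of 0.82 was lost without Cov DMSO replicate 1 (adjusted p = 0.00121) or replicate 2 (adjusted p = 0.00294), and it turned to 0.33 and 0.15 under equal medians and median-of-ratios.

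EGLN3 encodes PHD3, a hydroxylase that is strongly induced by HIF, and its annotation on the minus strand spans chr14:34393433-34931980. Ku DMSO libraries held 11.1 and 9.16 FPKM, the 50 nM libraries 13.1 and 12.5, and the 250 nM libraries 1.44 and 1.30. Cov libraries held 7.90 and 8.78 FPKM with DMSO, 3.76 and 4.72 at 50 nM, and 1.08 and 1.30 at 250 nM. In Ku cells both 50 nM libraries therefore lay above both DMSO libraries, and in Cov cells both lay below. The 50 nM change in Ku cells was 0.31, with a 95% interval of -0.024 to 0.65 (adjusted p = 0.0977), and was not called. In Cov cells EGLN3 fell by 0.84 at 50 nM (SE 0.13, adjusted p = 0.000538), but the call was lost without Cov DMSO replicate 1 (adjusted p = 0.00254), Cov DMSO replicate 2 (0.0057) or Cov 50 nM replicate 1 (0.00101), and the change was 0.19 with equal medians and 0.038 with median-of-ratios. At 250 nM it fell by 2.23 in Ku cells (SE 0.14, adjusted p = 2.30e-05) and by 2.09 in Cov cells (SE 0.13, adjusted p = 3.46e-06). The direction held at -0.72 and -0.55 with equal medians, neither called, and at -1.12 and -0.89 with median-of-ratios, both called. The ratio of EGLN3 to EGLN1 in Ku libraries was 0.521 and 0.486 with DMSO, 0.904 and 0.879 at 50 nM, and 0.495 and 0.416 at 250 nM. In Cov libraries it was 0.323 in both DMSO libraries, 0.284 and 0.313 at 50 nM, and 0.245 and 0.309 at 250 nM. In the deposited values the Ku ratio was thus higher at 50 nM than with DMSO, and at 250 nM it overlapped that of DMSO.

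**Figure D2:**
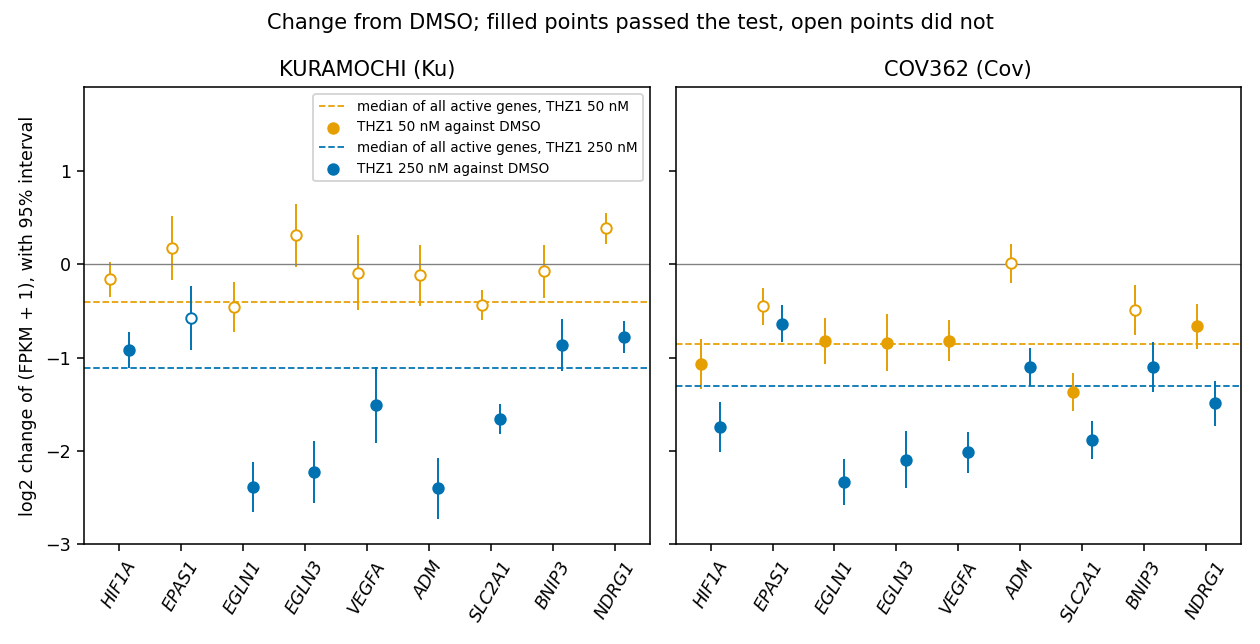
Log2 change of (FPKM + 1) from DMSO for the 9 active members at 50 nM and 250 nM, with limma's 95% intervals, Ku cells on the left and Cov cells on the right. Dashed lines give the median change of all active genes. At 250 nM EGLN1 and EGLN3 lay below the median line in both cell lines and EPAS1 above it.

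VEGFA and ADM encode secreted factors. VEGFA, the main angiogenic growth factor induced by hypoxia, lies at chr6:43737921-43754224 on the plus strand. Ku cells held 14.6 and 13.0 FPKM with DMSO, 13.6 and 12.3 at 50 nM, and 3.52 and 5.00 at 250 nM, with DMSO and 50 nM overlapping. Cov cells held 11.4 and 11.5 FPKM, then 5.94 and 6.22, then 2.08 and 2.10, with no overlap. At 250 nM VEGFA fell by 1.51 in Ku cells (SE 0.16, adjusted p = 0.000205), with 0.24 under equal medians and -0.23 under median-of-ratios. That call was lost without Ku DMSO replicate 1 (-1.43, adjusted p = 0.00184), Ku DMSO replicate 2 (-1.59, 0.00106) or Ku 250 nM replicate 1 (-1.30, 0.00103). In Cov cells it fell by 2.01 (SE 0.092, adjusted p = 1.24e-06), leaving 18.2% of the DMSO mean, and remained below DMSO at -0.31, not called, and -0.69, called. The 50 nM fall of 0.82 in Cov cells became 0.26 and 0.097 under the other scalings, and it was lost without Cov DMSO replicate 1 (adjusted p = 0.00153) or replicate 2 (adjusted p = 0.002). In Ku cells the 50 nM change was -0.089 and did not pass.

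ADM encodes adrenomedullin, a vasodilator peptide, and lies at chr11:10326620-10328944 on the plus strand. In Ku cells it stood at 8.98 and 8.85 FPKM with DMSO, 8.28 and 8.0 at 50 nM, and 1.03 and 0.737 at 250 nM. The Cov level was lower from the outset, at 2.29 and 2.48 FPKM with DMSO and 2.29 and 2.54 at 50 nM, and reached 0.550 and 0.608 at 250 nM. ADM lost more than any other member in Ku cells at 250 nM, where 9.93% of the DMSO mean was left and the fall was 2.40 (SE 0.13, adjusted p = 1.73e-05). The Ku direction held at -1.01 with equal medians, not called, and at -1.39 with median-of-ratios, called. In Cov cells 24.2% was left and the fall was 1.10 (SE 0.087, adjusted p = 1.16e-05), a scale on which the pseudocount of 1 understates the change of low genes, and it was 0.017 with equal medians and -0.23 with median-of-ratios. At 50 nM ADM changed by -0.12 in Ku and 0.0097 in Cov cells, and in Cov cells it was the member that departed furthest above the median of all genes, by 0.86, with overlapping libraries.

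SLC2A1 encodes GLUT1, the glucose transporter that HIF-1 raises, and lies at chr1:43391024-43424564 on the minus strand. It was the most abundant member in both lines. In Ku cells it went from 318 and 289 FPKM with DMSO to 227 and 221 at 50 nM and 97.1 and 93.7 at 250 nM. Cov libraries went from 185 and 204 FPKM to 74.0 and 75.1 and then to 49.9 and 54.0. The groups did not overlap in either line, and 31.4% and 26.7% of the DMSO means were left at 250 nM. SLC2A1 fell by 1.66 in Ku cells (SE 0.066, adjusted p = 8.45e-06), with 0.31 under equal medians and -0.21 under median-of-ratios. It fell by 1.88 in Cov cells (SE 0.087, adjusted p = 1.29e-06), with 0.17 and -0.29 under those scalings. At 50 nM it fell by 1.37 in Cov cells (SE 0.087, adjusted p = 2.28e-05), the largest change of any member at that dose. It lay below DMSO at -0.15 and -0.35 under those scalings, neither called. In Ku cells the 50 nM change was -0.43 (adjusted p = 0.00291), which missed both thresholds. A neighbouring antisense gene with a row of its own, SLC2A1-AS1, lay at 1.17 FPKM in Ku DMSO libraries and 1.37 in Cov DMSO libraries and was called in no comparison. The library kit keeps strand, but whether the counting used it is not given in the sources used here.

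CA9 encodes carbonic anhydrase IX, a cell-surface enzyme that helps hypoxic cells export acid and a common marker of hypoxic tumours. It lies at chr9:35673925-35681156 on the plus strand, where exons of ARHGEF39 overlap it on the other strand. In Ku cells all 6 libraries held it at the low value, between 0.0783 and 0.119 FPKM, that 5278 rows of a Ku library share. The Cov libraries read 0.229 and 0.171 FPKM with DMSO, 0.0888 and 0.101 at 50 nM, and 0.203 and 0.233 at 250 nM, where the value shared by 4901 rows ran from 0.0890 to 0.110. These values are all below 1 FPKM, so CA9 was not tested and no fold is given.

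BNIP3 and NDRG1 encode stress proteins. BNIP3, a mitochondrial receptor for mitophagy, lies at chr10:133781188-133795471 on the minus strand. Ku libraries held 26.6 and 25.1 FPKM with DMSO, 26.0 and 23.0 at 50 nM, and 15.0 and 12.5 at 250 nM. Cov libraries held 46.3 and 50.1 FPKM with DMSO, 31.1 and 37.0 at 50 nM, and 23.2 and 20.6 at 250 nM. The DMSO and 50 nM libraries overlapped in Ku cells only. At 250 nM BNIP3 fell by 0.87 in Ku cells (SE 0.11, adjusted p = 0.000497) and by 1.10 in Cov cells (SE 0.11, adjusted p = 4.40e-05). Under equal medians these became 1.02, not called, and 0.91, called higher, and under median-of-ratios 0.52 and 0.46, neither called. The Ku call was lost without either Ku DMSO library or either Ku 250 nM library, with changes from -0.99 to -0.74 and adjusted p from 0.00121 to 0.00384. At 50 nM the changes of -0.073 in Ku and -0.49 in Cov cells (adjusted p = 0.00412) were not called. Reads that BNIP3 shares with pseudogene copies could not be set apart in these tables.

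NDRG1, a stress-induced protein and widely used hypoxia reporter, lies at chr8:134249418-134314265 on the minus strand. In Ku cells it stood at 118 and 107 FPKM with DMSO, 147 and 148 at 50 nM, and 66.8 and 63.4 at 250 nM. The Cov values were 39.7 and 44.3 FPKM with DMSO, 24.3 and 28.0 at 50 nM, and 14.1 and 14.4 at 250 nM. The Ku libraries were thus highest at 50 nM and lowest at 250 nM, without overlap, whereas the Cov libraries stepped down with dose. The 50 nM change in Ku cells was 0.39, with a 95% interval of 0.22 to 0.55 (adjusted p = 0.00507), which missed both thresholds. It was 1.08 with equal medians, not called, and 0.94 with median-of-ratios, called higher, and 98.5% of active genes had a lower log2 change. In Cov cells NDRG1 fell by 0.66 at 50 nM (SE 0.10, adjusted p = 0.00059), with 0.52 and 0.33 under the other scalings. The call was lost without Cov DMSO replicate 1 (-0.74), Cov DMSO replicate 2 (-0.59) or Cov 50 nM replicate 1 (-0.56). It was also lost in limma with a replicate block (adjusted p = 0.00111) and with no minimum FPKM (adjusted p = 0.00109). At 250 nM it fell by 0.78 in Ku cells (SE 0.069, adjusted p = 8.23e-05), against 1.18 and 0.66, both called higher, under equal medians and median-of-ratios. In Cov cells it fell by 1.49 (SE 0.10, adjusted p = 6.00e-06), against 0.50 and 0.058, neither called.

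The step from 50 to 250 nM was compared within each line. Over it, 7 of 9 fell in Ku cells, where 36% of all active genes were called lower and 0.0421% higher. That count of members was smaller when any 1 Ku library was left out. It was 3 with equal medians and 3 with median-of-ratios, beside 934 and 1582 of all genes. With no minimum FPKM, 1901 of all genes were called lower over this step in Ku cells. In Cov cells 5 of 9 fell over that step, against 24.4% called lower and 0.0842% higher, and 3 fell without Cov 250 nM replicate 1. The genes called lower over this step were 5132 in Ku cells and between 791 and 1603 when any 1 of the Ku 50 nM or 250 nM libraries was left out. In Cov cells they were 3474, or 2193 and 2197 without Cov DMSO replicate 1 and 2, and 1692 and 1518 without Cov 250 nM replicate 1 and 2, and 1130 with a replicate block. The falls over this step in Ku cells ran from 0.76 for HIF1A to 2.54 for EGLN3. Those in Cov cells ran from 0.83 for NDRG1 to 1.51 for EGLN1. Every DMSO library above every 50 nM library and every 50 nM library above every 250 nM library was seen for 4 members in Ku cells, HIF1A, EGLN1, ADM and SLC2A1, where 66.7% of active genes showed that order. It was seen for 8 members in Cov cells, all but ADM, where 73.8% of active genes did. No member kept that order under equal medians or median-of-ratios in either line. Over DMSO, the count of members called lower in Cov cells at 50 nM moved from 6 to 2 without Cov DMSO replicate 1 and to 1 without Cov DMSO replicate 2. Comparisons of both doses with DMSO use the same DMSO libraries.

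Beside the members, RNAs for the machinery that controls HIF were counted. Of 15 listed genes for HIF subunits and partners, hydroxylases, VHL ligase subunits, coactivators and SIAH ligases, 14 were active, and 13 fell at 250 nM in Ku cells and all 14 in Cov cells, with none higher, also at an unadjusted p under 0.05, in this or any list below. Of all active genes 68.6% and 84% were called lower. With equal medians 5 of the 14 were called lower and 4 higher in each line, and with median-of-ratios 7 and 3 in each. Values of single list genes are on the spike-in scale. The median change was -1.92 in Ku and -2.12 in Cov cells, below the medians of all genes, and it stayed negative at -0.51 and -0.23 with equal medians and -0.89 and -0.65 with median-of-ratios. SIAH2, a ubiquitin ligase for EGLN proteins, changed most in Ku cells, with a fall of 3.40 there and 3.17 in Cov cells. EGLN2, the hydroxylase PHD1, fell by 3.11 and 2.87. The elongins of the VHL complex had the smallest changes of the list in Ku cells: TCEB2 fell by 0.51 in Ku and 0.62 in Cov cells, and TCEB1 changed by -0.52, not called, and fell by 1.06. ARNT, the partner of both alpha subunits, fell by 1.69 and 1.88, and VHL by 2.26 and 2.12. These 2 are named for their roles and were chosen after their values were seen. At 50 nM none of the 14 was called in limma in Ku cells, where 11.3% of all active genes were called lower. There 10 lay lower at an unadjusted p under 0.05, a p at which all genes were not counted. In Cov cells 11 were called lower, beside 70.5% of all active genes, and fewer without Cov DMSO replicate 2. With equal medians and with median-of-ratios 0 were called lower in Cov cells at that dose.

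Of the 19 listed genes of glucose metabolism, all active, 10 fell at 250 nM in Ku and 17 in Cov cells, none higher, where 68.6% and 84% of all active genes were called lower. With equal medians none was called lower in either line and 11 and 12 were called higher, and with median-of-ratios 1 and 0 were lower and 6 and 8 higher. On the deposited scale the change was below the median of all genes for 5 genes in Ku and 4 in Cov cells. The list medians of -0.68 and -0.85 lay above the medians of all genes, but below those of -0.50 and -0.70 with no minimum FPKM, and were 1.16 and 0.79 with equal medians and 0.64 and 0.35 with median-of-ratios. PFKFB3, which makes the activator of phosphofructokinase, fell by 2.12 in Ku and 1.95 in Cov cells, and SLC16A3, the lactate exporter MCT4, by 1.57 and 1.41. ENO2 changed by -0.24, not called, in Ku cells and fell by 0.62 in Cov cells. SLC2A3, the transporter GLUT3, fell by 0.85 in Cov cells. It was active through the Cov libraries alone and stood at 0.138 FPKM in Ku DMSO libraries, near the low shared value, so its Ku change is not read. SLC2A3 and PFKFB4 are 2 of the 19 that stayed at or under 1 FPKM in every Ku library, and ALDOC, 1 of the 19, did so in Cov cells. At 50 nM none was called in limma in Ku cells, beside 11.3% of all active genes called lower, and 5 lay lower at an unadjusted p under 0.05. In Cov cells 11 were called lower, beside 70.5% of all active genes. Fewer were called without Cov DMSO replicate 2, either Cov 50 nM library or either Cov 250 nM library. With equal medians and with median-of-ratios 0 were called lower in Cov cells at that dose.

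**Figure D3:**
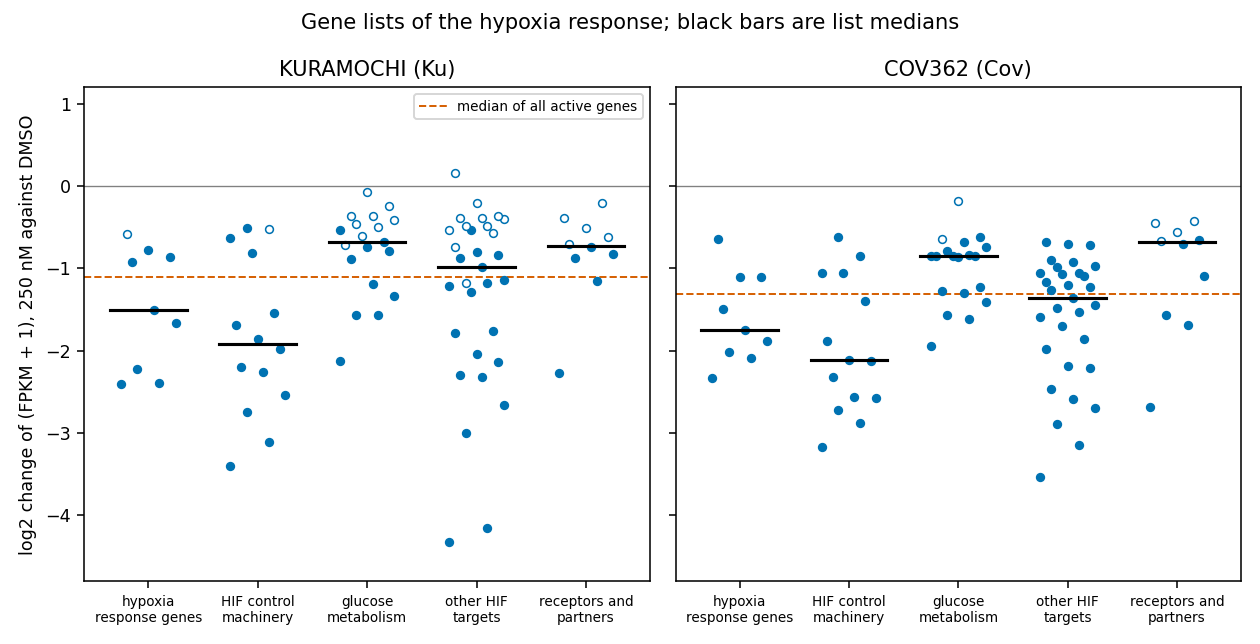
Log2 change of (FPKM + 1) at 250 nM against DMSO for every active gene of the members and of 4 lists, with Ku cells on the left and Cov cells on the right. Filled points were called lower, open points were not called, black bars are list medians and the dashed line is the median of all active genes. On this scale and set of genes the bars of the members and the control machinery lie below the dashed line in both lines, and those of glucose metabolism and of receptors and partners above it. The members' bar in Ku cells lies above the line with a minimum of 10 FPKM (-1.21 against -1.29) and with equal medians (0.31 against 0.29), and with no minimum the glucose bars in both lines and the partners bar in Ku cells lie below it.

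Of 32 other listed genes that HIF is known to induce, 31 were active, and 19 fell at 250 nM in Ku cells and all 31 in Cov cells, none higher, beside 68.6% and 84% of all active genes called lower. With equal medians 8 were called lower and 13 higher in Ku cells, and 5 and 12 in Cov cells, and with median-of-ratios 10 and 10, and 9 and 2. The Ku count was 12 without Ku 250 nM replicate 1. Medians were -0.98 and -1.36, and they were 0.62 and 0.21 with equal medians and 0.18 and -0.071 with median-of-ratios. CITED2, which competes with HIF-1α for its coactivators, fell by 4.32 in Ku and 2.70 in Cov cells. HILPDA, a lipid droplet protein, fell by 4.15 and 3.53. These 2 were also the listed targets called lower at 50 nM in Ku cells, by 0.97 and 1.38, beside 11.3% of all active genes. Neither was called lower there when any 1 Ku library was left out. Nor was either called lower with no minimum FPKM, only the 2 groups compared, a replicate block or the 2 other scalings. At the other end MAFF changed by 0.16 in Ku cells, not called, and fell by 1.05 in Cov cells. LOX, which crosslinks collagen, fell by 1.59 in Cov cells. LOX and ANKRD37 are 2 of the 31 that stayed at or under 1 FPKM in every Ku library, where the pseudocount of 1 keeps a change small. LOX stood at 0.520 FPKM in Ku DMSO libraries and 0.316 at 250 nM. At 50 nM 21 of the 31 were called lower in Cov cells, beside 70.5% of all active genes, and fewer without either Cov DMSO library. With equal medians and with median-of-ratios 0 were called lower there, beside 21 and 110 of all genes.

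Receptors, cofactors and relatives of VEGFA, ADM and NDRG1 made the last list. Of 13 listed genes 10 were active, and 5 fell at 250 nM in Ku and 6 in Cov cells, none higher, against 68.6% and 84% of all active genes called lower. With equal medians 0 were called lower and 6 higher in Ku cells, and 1 and 4 in Cov cells, and with median-of-ratios 0 and 3, and 1 and 1. In Ku cells 3 were called without Ku 250 nM replicate 1 and 2 without Ku 250 nM replicate 2. Medians were -0.72 and -0.68, the latter -1.21 with a pseudocount of 0.1 and -1.13 with a minimum of 10 FPKM, and they were 0.89 and 0.46 with equal medians and 0.39 and 0.13 with median-of-ratios. VEGFC, a lymphangiogenic relative of VEGFA, fell by 2.27 in Ku and 2.68 in Cov cells, and NRP2, a coreceptor, by 1.15 and 1.68. NDRG3, a relative of NDRG1, changed by -0.39 and -0.67, and RAMP2, part of the adrenomedullin receptor, by -0.21 and -0.45, none of them called. At 50 nM none was called in limma in Ku cells, beside 11.3% of all active genes called lower, and 6 lay lower at an unadjusted p under 0.05. In Cov cells 5 were called lower, beside 70.5% of all active genes, and fewer without Cov DMSO replicate 2. With equal medians and with median-of-ratios 0 were called lower in Cov cells at that dose.

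**Figure D4:**
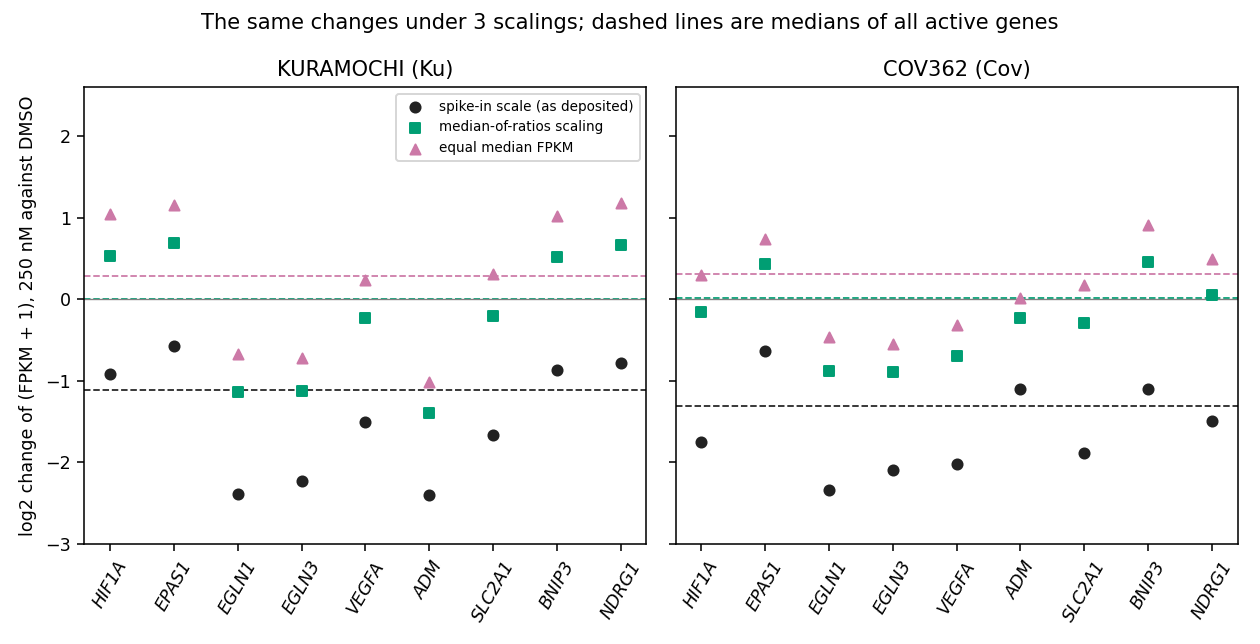
Log2 change of (FPKM + 1) at 250 nM against DMSO for the 9 active members on the deposited spike-in scale, with median-of-ratios scaling and with equal median FPKM, Ku cells on the left and Cov cells on the right. Dashed lines give the median of all active genes on each scale. EGLN1 and EGLN3 lie below 0 on all 3 scales in both lines, ADM in Ku cells and VEGFA in Cov cells do so too, and the other members cross 0.

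Relative to the median of all active genes, the members took different places at 250 nM, and some places depended on the scale and on the genes the median was taken over. EGLN1, EGLN3, VEGFA and SLC2A1 lay below it in both lines, with log2 differences from it between -1.28 and -0.40. For EGLN1, EGLN3 and VEGFA in both lines and for SLC2A1 in Cov cells this held with the pseudocount of 0.1, both other minimum FPKM settings and both other scalings, whereas SLC2A1 in Ku cells came to 0.028 with equal medians. EPAS1 and BNIP3 lay above the median in both lines, with differences from 0.20 to 0.67. HIF1A and NDRG1 lay above it in Ku cells, at 0.19 and 0.33. With no minimum FPKM, which adds genes at or near the low shared value to the median, the differences in Ku cells were -0.078 for EPAS1, -0.37 for BNIP3, -0.42 for HIF1A and -0.28 for NDRG1. In Cov cells BNIP3 came to -0.41 and EPAS1 to 0.06 with no minimum. HIF1A lay below the median in Cov cells, at -0.44, and stayed below it under those settings, at -0.0076 with equal medians.

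For NDRG1 and ADM in Cov cells the place changed sign. NDRG1 lay at -0.18 there and came to 0.19 with equal medians, 0.047 with median-of-ratios, 0.007 with a minimum of 10 FPKM and 0.002 with a pseudocount of 0.1. ADM lay below the median in Ku cells, at -1.29, and under the other settings that kept it. In Cov cells ADM lay above it, at 0.21, with the pseudocount of 1, and below it at -0.32 with a pseudocount of 0.1, -0.29 with equal medians, -0.24 with median-of-ratios and -0.40 with no minimum. Differences between the lines in these places were not tested.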

How the data were processed

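RNA-seq libraries were made by the authors with a stranded mRNA kit from RNA normalized by cell count and mixed with ERCC spike-ins. The authors used HISAT for alignment to hg19 and Cufflinks tools with Cuffnorm for FPKM, then normalized to the spike-ins and deposited 1 table per line with 23713 rows, 92 of them spike-ins. Versions are not given in the sources used here. Because FPKM are not counts, the count test of the study was replaced by limma. Groups came from the labels.

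Genes above 1 FPKM in at least 1 of 12 libraries were kept without spike-ins, log2(FPKM + 1) was fitted per line (limma 3.58.1, R 4.3.3, eBayes with trend, 3 groups of 2) and p-values were adjusted by Benjamini-Hochberg over 14251 genes. Tests were two-sided. The fit was also run on simulated data with few changed genes, all of them well expressed. That setting cannot show how the fit does under a broad fall or for the less abundant members. The members and gene lists were chosen with earlier results of these data known. All members are named. From each list the 2 lowest and 2 highest active genes at 250 nM in Ku cells are named, and the 3 genes nearest to HIF1A and to EPAS1. Gene positions are from GENCODE lifted to GRCh37, and promoters from RefSeq, read with Python 3.11.15. Alternatives were a minimum FPKM of 10 or none, a pseudocount of 0.1, equal median FPKM, median-of-ratios scaling, a replicate block, no trend, a fit of 2 groups, an adjusted p under 0.05 and each library left out in turn. A gene that the rule for most similar patterns named is not reported here.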

Additional observations from a re-analysis of the deposited data

Results flagged for a closer look

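At 50 nM THZ1, on the spike-in scale, the libraries of EGLN3 moved in opposite directions in the cell lines. Both Ku libraries lay above both DMSO libraries, with a log2 change of 0.3124, and both Cov libraries lay below, with a change of -0.8394. NDRG1 did the same, with 0.3851 in Ku cells and -0.6647 in Cov cells. Neither Ku change was called in limma. The opposite directions were not seen on the other scales, where the Cov values were 0.19 with equal medians and 0.038 with median-of-ratios for EGLN3, and 0.52 and 0.33 for NDRG1, and the Ku values were 0.93 and 0.81 for EGLN3 and 1.08 and 0.94 for NDRG1. The Cov call of each gene was lost in 3 of 6 fits with 1 Cov library left out, and that of NDRG1 also with the replicate block. The difference between the lines was not tested, since their tables were normalized separately, and medium and line cannot be told apart.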

How the results depend on the processing

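Of 36 changes of a member against DMSO, 36 kept their call with a pseudocount of 0.1, without the trend and with only the 2 groups compared, and 32 of 32 with a minimum of 10 FPKM. With no minimum 32 kept it, and BNIP3 (Ku, 250 nM), EGLN3 and NDRG1 (Cov, 50 nM) and EPAS1 (Cov, 250 nM) lost it. At an adjusted p under 0.05, EPAS1 in Ku cells at 250 nM was called and 35 were as before. From 50 to 250 nM in Cov cells, 5 members were called lower, 3 with no minimum and 8 at 0.05, beside 3474, 2127 and 5909 of all genes.
No shared effect of same-numbered libraries was seen: their deviations correlated between -0.0703 and 0.0282 across genes. The labels do not say whether they were handled together. With a replicate block 35 calls held and NDRG1 in Cov cells at 50 nM lost its own (-0.66, adjusted p = 0.00111). The block left 7 of the machinery, 5 of glucose metabolism and 12 of the other targets called lower in Cov cells at 50 nM, and 0 of the other targets in Ku cells.
Leaving out 1 library kept 191 of 216 calls, with 22 lost and 3 changes of sign in uncalled values. Members called lower ran from 1 to 6 in Cov cells at 50 nM and from 3 to 6 over the step from 50 to 250 nM. BNIP3 in Ku cells at 50 nM ran from -0.1576 to 0.01131, and ADM in Cov cells from -0.04252 to 0.06197.
With equal medians the members called lower at 250 nM were 1 in Ku and 0 in Cov cells, and those called higher 3 and 2. The count lower was 0 in Cov cells at 50 nM, and 3 in Ku and 2 in Cov cells from 50 to 250 nM, and 0 members in either line kept dose order. Over all genes the counts lower were then 21 in Cov cells at 50 nM, and 934 (921 higher) in Ku and 706 (451 higher) in Cov cells from 50 to 250 nM. With median-of-ratios, 250 nM gave 3 lower and 3 higher in Ku cells, 3 lower in Cov cells, 1 (NDRG1) higher in Ku and 0 lower in Cov cells at 50 nM, 3 lower in each line from 50 to 250 nM, and 0 in dose order, beside 110 genes lower in Cov cells at 50 nM and 1582 in Ku and 1129 in Cov cells over the step. The direction against DMSO turned in 25 of 36 changes with equal medians and in 19 with median-of-ratios. Among those turned with equal medians at 250 nM, HIF1A, SLC2A1 and ADM in Cov cells and VEGFA in Ku cells lay below the median active gene. The other turned members at that dose lay above it.
With equal medians, Ku cells at 50 nM gave ADM 0.49, BNIP3 0.60, EGLN1 0.20, HIF1A 0.54, SLC2A1 0.27 and VEGFA 0.55. Ku cells at 250 nM gave BNIP3 1.02, EPAS1 1.15, HIF1A 1.04, NDRG1 1.18, SLC2A1 0.31 and VEGFA 0.24. Cov cells at 50 nM gave BNIP3 0.69, EGLN1 0.33, EGLN3 0.19, EPAS1 0.36, HIF1A 0.14, NDRG1 0.52 and VEGFA 0.26. Cov cells at 250 nM gave ADM 0.017, BNIP3 0.91, EPAS1 0.74, HIF1A 0.30, NDRG1 0.50 and SLC2A1 0.17.
With median-of-ratios, Ku cells at 50 nM gave ADM 0.37, BNIP3 0.46, EGLN1 0.069, HIF1A 0.39, SLC2A1 0.12 and VEGFA 0.42. Ku cells at 250 nM gave BNIP3 0.52, EPAS1 0.69, HIF1A 0.53 and NDRG1 0.66. Cov cells at 50 nM gave BNIP3 0.51, EGLN1 0.15, EGLN3 0.038, EPAS1 0.24, NDRG1 0.33 and VEGFA 0.097. Cov cells at 250 nM gave BNIP3 0.46, EPAS1 0.44 and NDRG1 0.058. Depth is unknown, so no limit from counting could be set for ADM or CA9.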
